A study of Homo sapiens with 12 samples.

Results

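The 56 genes described here encode the machinery of mitosis and of its onset, the G2/M transition, and were chosen by name as a functional group. All 56 symbols were among the 20114 gene symbols of the count table, and all 56 passed the filter on low counts that left 13872 genes to test. They were measured by RNA sequencing in T47D, a human breast carcinoma line with a luminal phenotype that carries progesterone and estrogen receptors. Cells were held in medium with little serum, which synchronizes them, and then received vehicle, 100 pM progestin or 10 nM progestin for 18 h or 6 h. The labels name neither the progestin nor the vehicle, and all 6 groups share the starvation and the hormone-stripped, phenol red-free medium. Each group had 2 libraries, numbered replicate 1 and replicate 3. Dose was compared within each time, each dose was compared between times, and the dose effect at 18 h was tested against that at 6 h. Both doses at a time were set against the same vehicle libraries, so those comparisons share samples.

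Cells enter mitosis when cyclin B bound to CDK1 is switched on by the CDC25 phosphatases, and leave it when the anaphase-promoting complex, an E3 ubiquitin ligase, destroys cyclin B and securin. Between these steps the Polo and Aurora kinases build the spindle, kinetochores tie chromosomes to it, and the spindle checkpoint delays anaphase until every chromosome is attached. Most genes of this machinery are transcribed periodically. In resting cells the DREAM complex holds them down through a promoter element called the CHR (cell cycle genes homology region). In cycling cells the same element recruits MYBL2 and then FOXM1 to activate them, and CCAAT boxes bound by the factor NF-Y often lie nearby.

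The CHR was common in the promoters of these genes. RefSeq promoter windows (GRCh38.p14; 250 bases before and 50 after an annotated start) were at hand for 48 of the 56 genes, in 61 windows, and for 10340 of all tested genes. The letters TTTGAA, the CHR, read on either strand, occurred in the windows of 34 of the 48 genes (70.8%), against 13.8% of all tested genes with a window. The variant TTTAAA occurred in 17 (35.4%), against 11.1%, and either form in 42 (87.5%), against 21.6%. Those with neither form in these windows were AURKB, BUB1, CCNA2, CKAP2, MYBL2 and SPC24. CCAAT was found in 37 (77.1%), against 43.1%, and an E2F motif (TTCCCGC or TTGGCGC, either strand) in 11 (22.9%), against 17.5%. A match is a run of letters and not a measured binding site. In the plot of motif positions the CHR matches crowd close to the start: 22 of the 48 genes had one between 60 bases and 1 base before it, against 2.81% of all tested genes.

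**Figure D1:**
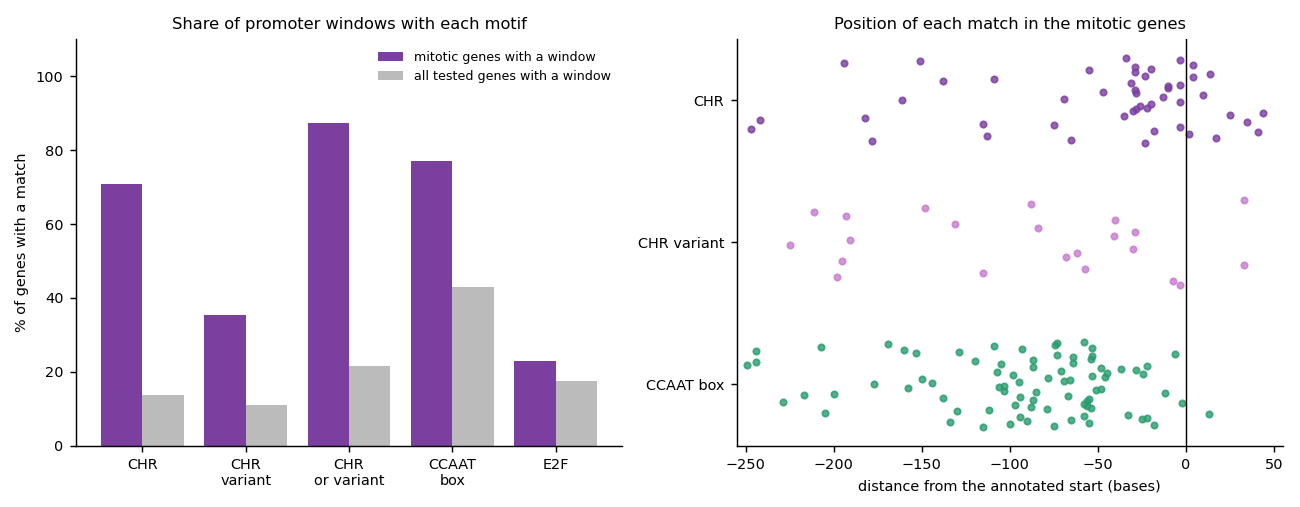
Left, share of genes with each motif (%), for the 48 mitotic genes and for all tested genes with a RefSeq promoter window. Right, distance of each CHR, CHR variant and CCAAT match in the mitotic genes from the annotated start (bases), with points spread vertically for visibility. The CHR was found in 70.8% of the mitotic genes and 13.8% of all tested genes, and its matches gather just before the start.

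Promoter stretches of 7 genes are shown because their genes went different ways in the results. MKI67 was called higher at 100 pM for 18 h both without and with replicate number as a block in the fit. CDK1, CCNB2 and KIF23 were called higher there only with the block, and PLK1 was called in neither fit. ASPM was called lower at 10 nM, and KIF20A was called higher at 10 nM only with the block. Each stretch is the 120 bases before an annotated start (RefSeq, GRCh38.p14), 5′ to 3′ on the strand of the gene. The CHR, its variant and CCAAT boxes (also read as ATTGG) are in capitals. Positions count back from the start, the last base being -1. The stretches are MKI67 (chr10:128126424-128126543, minus strand), CDK1 (chr10:60778358-60778477, plus strand), CCNB2 (chr15:59105026-59105145, plus strand), KIF23 (chr15:69414229-69414348, plus strand), PLK1 (chr16:23678769-23678888, plus strand), ASPM (chr1:197146670-197146789, minus strand) and KIF20A (chr5:138178992-138179111, plus strand).
MKI67: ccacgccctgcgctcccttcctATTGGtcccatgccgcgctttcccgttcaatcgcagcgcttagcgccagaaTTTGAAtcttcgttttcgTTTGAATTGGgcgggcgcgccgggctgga
CDK1: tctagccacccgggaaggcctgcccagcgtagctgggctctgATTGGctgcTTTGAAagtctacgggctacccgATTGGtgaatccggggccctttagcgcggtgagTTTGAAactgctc
CCNB2: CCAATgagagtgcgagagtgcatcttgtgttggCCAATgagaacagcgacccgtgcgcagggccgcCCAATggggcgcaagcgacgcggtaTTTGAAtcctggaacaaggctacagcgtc
KIF23: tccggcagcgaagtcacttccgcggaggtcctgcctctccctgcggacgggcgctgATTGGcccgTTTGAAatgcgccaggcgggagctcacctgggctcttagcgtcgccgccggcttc
PLK1: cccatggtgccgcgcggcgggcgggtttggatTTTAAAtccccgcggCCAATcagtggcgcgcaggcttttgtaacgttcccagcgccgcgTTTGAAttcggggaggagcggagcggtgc
ASPM: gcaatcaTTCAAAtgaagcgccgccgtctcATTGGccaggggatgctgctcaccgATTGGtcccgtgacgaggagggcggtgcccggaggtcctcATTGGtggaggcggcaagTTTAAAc
KIF20A: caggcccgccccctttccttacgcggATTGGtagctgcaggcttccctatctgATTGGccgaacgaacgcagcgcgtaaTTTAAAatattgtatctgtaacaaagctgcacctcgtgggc

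In MKI67 the CHR at position -29 and the CCAAT box at -24, read on the other strand, share bases. The CDK1 stretch precedes the later of the annotated starts of that gene, and in it the matches at -69 and -13 are both TTTGAA. In PLK1 the CHR lies at -29, in KIF23 at -55 and in CCNB2 at -29, the last below CCAAT boxes at -120, -87 and -54. ASPM had the variant at -7, a CHR on the other strand at -113 and CCAAT boxes at -90, -65 and -25. KIF20A had the variant at -41 and CCAAT boxes at -94 and -67. At 100 pM for 18 h the median log2 fold change against vehicle was 1.07 over the 34 genes with the CHR and 1.09 over the 14 without, and 0.999 over the 42 with the CHR or its variant and 1.39 over the 6 with neither. At 10 nM for 6 h it was -0.41 with the CHR and -0.15 without against vehicle, and -0.48 and -0.22 against 100 pM. With the variant counted too, the gap was smaller: -0.31 and -0.17 against vehicle, and -0.42 and -0.31 against 100 pM. Split by the CCAAT box, it was -0.23 with and -0.31 without against vehicle, and -0.39 and -0.37 against 100 pM. These differences were not tested.

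Library totals lay between 34204970 and 41373890 counts, and the count of a mitotic gene in a library between 60 (CDC25C) and 10827 (MYBL2). Levels are given as CPM, the count relative to the TMM-adjusted library total, in the order replicate 1 and replicate 3. They are not divided by gene length, so they are compared between samples and not between genes. Luminal markers summed to 4553 to 10717 CPM per library, basal markers to 3.20 to 13.0 CPM, fibroblast markers to 66.3 to 114 CPM, immune markers to 2.82 to 5.50 CPM and the 2 endothelial markers in the table to 0.0812 to 0.927 CPM. Replicate 3 was above replicate 1 in 51 to 55 of the 56 genes in each of the 6 groups, with median ratios of replicate 3 to replicate 1 from 1.29 in vehicle at 6 h to 2.34 at 10 nM for 18 h. Only CDC25B was lower in replicate 3 in all 6 groups. The share of counts from mitochondrially encoded genes, 6.69% to 10.8%, was also higher in replicate 3 in each group, and its part in the results was not tested. Because of this shared offset, results are given without and with replicate number as a block in the fit, and as ratios between libraries of the same number. The labels name no separate culture behind each library of a group, so the spread that the p-values use may be technical. In such bulk RNA, a change in the share of cells near mitosis and a change in RNA per cell cannot be told apart.

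**Figure D2:**
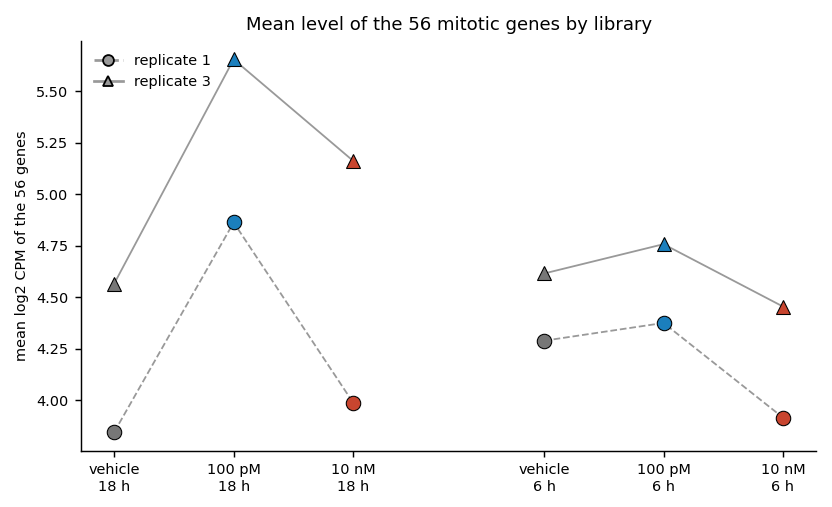
Mean of log2 CPM over the 56 mitotic genes (y) in each of the 12 libraries, by dose and time (x). Circles and dashed lines are replicate 1, triangles and solid lines replicate 3. At both times 100 pM is the highest of the 3 doses within each replicate number, and at 18 h replicate 1 stands at 3.85, 4.86 and 3.99 in vehicle, 100 pM and 10 nM.

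At 18 h the mitotic genes as a group were higher at 100 pM progestin than in vehicle, by about the same ratio in both replicate numbers. The median ratio of 100 pM to vehicle was 2.09 in replicate 1, with 55 of 56 genes above 1, and 2.16 in replicate 3, with 56 of 56 above 1. In 43 of the 56 genes both 100 pM libraries lay above both vehicle libraries, as they did in 24.0% of all tested genes. Without the block edgeR called 4 genes higher and 0 lower (all tested genes: 6.57% higher, 3.89% lower): MYBL2, LMNB1, MKI67 and CENPN. At an unadjusted p under 0.05, 33 were higher and 0 lower (all tested genes: 3572 of 13872 in either direction). With the block edgeR called 49 higher and 0 lower (all tested genes: 17.0% higher, 17.0% lower). DESeq2 without a block called 26 higher, and its share over all genes is not given here. The median log2 fold change over the 56 genes was 1.12, against -0.03 over all tested genes, and it was 0.61 without 100 pM replicate 3 and 1.54 without vehicle replicate 3. The 4 calls made without the block did not survive every change of library. None of the 56 was called without 100 pM replicate 3, without vehicle replicate 1 or without vehicle replicate 3, or in a fit to the 18 h libraries alone, and 3 were called without 100 pM replicate 1.

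At 10 nM for 18 h the median of the group lay above vehicle by less, by an amount that differed between the replicate numbers, and 0 genes were called higher without the block. The median ratio to vehicle was 1.15 in replicate 1, with 38 genes above 1, and 1.53 in replicate 3, with 51 above 1. The libraries of 10 nM and vehicle did not overlap in 2 genes with 10 nM higher and 2 with 10 nM lower, fewer than the 33.2% and 32.6% of all tested genes. Without the block edgeR called BUB3 and ASPM lower and 0 genes higher (all tested genes: 19.0% higher, 15.2% lower). DESeq2 called these 2 lower and MYBL2, LMNB1 and CKAP2 higher. With the block 24 were higher and 3, BUB3, ASPM and ECT2, lower (all tested genes: 28.7% higher, 27.3% lower). The median log2 fold change was 0.48, and it was -0.27 without 10 nM replicate 3 and 1.01 without 10 nM replicate 1. Without 10 nM replicate 1 the count of calls was 6.

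Set directly against 100 pM, 10 nM gave lower levels at 18 h. The median ratio of 10 nM to 100 pM was 0.524 in replicate 1 and 0.705 in replicate 3, with 54 and 52 of the 56 genes below 1. Without the block 4 genes were called lower, BUB3, ASPM, ECT2 and CENPN, and 0 higher, shares below those of all tested genes (14.8% higher, 11.4% lower). With the block 40 were lower and 1, KIF20A, higher (all tested genes: 25.4% higher, 24.7% lower). The libraries of the doses did not overlap, with 10 nM lower, in 11 of the 56 genes, a smaller share than the 28.7% of all tested genes. The median log2 fold change was -0.12 without 100 pM replicate 3 and -1.43 without 10 nM replicate 3. The count of calls without the block was 14 without 10 nM replicate 3, 7 without 100 pM replicate 1, and 2 without either 100 pM replicate 3 or 10 nM replicate 1.

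**Figure D3:**
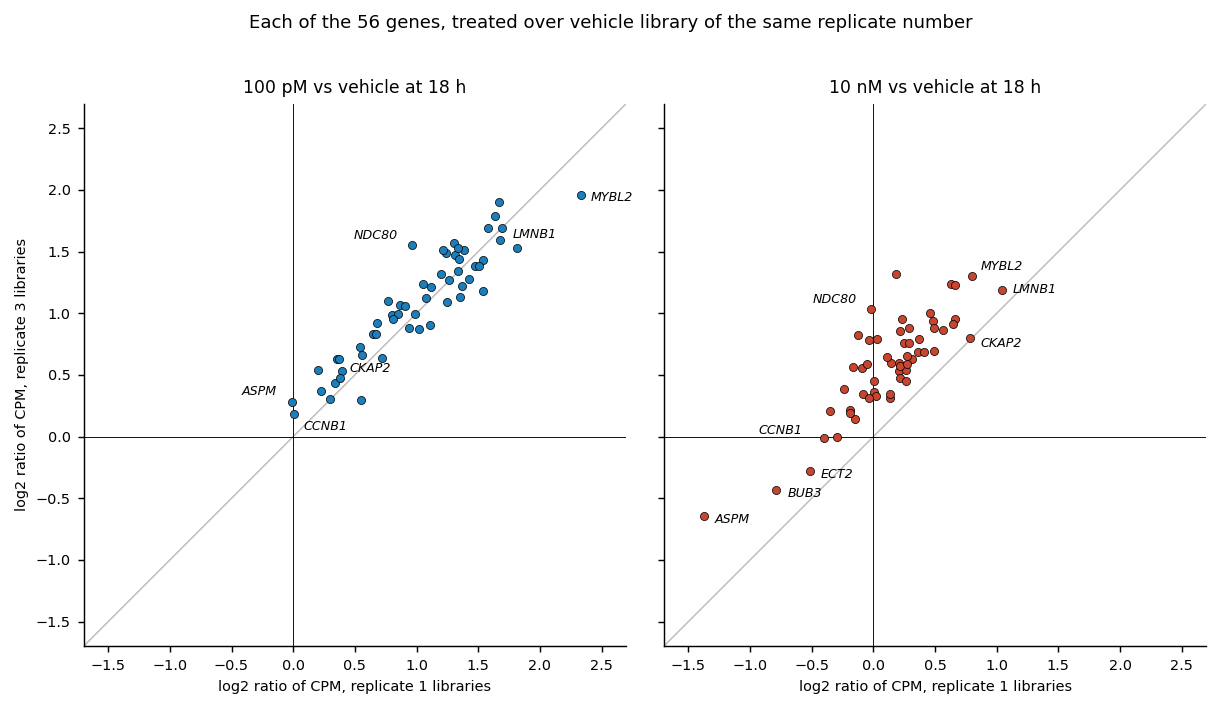
Log2 ratio of CPM at 18 h between libraries of the same replicate number, replicate 1 on x and replicate 3 on y, for each of the 56 genes, at 100 pM over vehicle (left) and 10 nM over vehicle (right). Grey marks equal ratios. At 100 pM the points lie along the line, with medians of 1.06 and 1.11, while at 10 nM they lie above it, with medians of 0.20 and 0.61.

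Of the transcription factors that act on these promoters, MYBL2 had the largest fold change of the 56 genes at 100 pM. MYBL2, the B-MYB factor that with the MuvB core activates CHR genes, measured 39.1 and 78.5 CPM in vehicle, 197 and 305 CPM at 100 pM and 67.9 and 194 CPM at 10 nM at 18 h. FOXM1, the factor that follows it at the same promoters, measured 14.3 and 27.0 CPM in vehicle, 40.4 and 70.4 CPM at 100 pM and 17.4 and 45.7 CPM at 10 nM. In both genes the libraries at 100 pM lay above those of vehicle. The libraries at 10 nM overlapped vehicle in both genes, and overlapped 100 pM in FOXM1 and not in MYBL2. MYBL2 rose by 2.09 ± 0.53 on the log2 scale at 100 pM (log2 fold change ± SE, adjusted p = 0.0394). FOXM1 differed by 1.42 ± 0.51 and was called only with the block (adjusted p = 0.000344). With the block, both were also higher at 10 nM than in vehicle and lower at 10 nM than at 100 pM (log2 -1.04 ± 0.24 for MYBL2 and -0.87 ± 0.18 for FOXM1).

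Of the 6 cyclin, CDK1 and CDC25 genes, 0 were called at 18 h without the block. With the block 5 rose at 100 pM (all tested genes: 17.0% higher). CDK1, the kinase that drives entry into mitosis, measured 31.7 and 52.5 CPM in vehicle, 74.7 and 147 CPM at 100 pM and 29.1 and 93.0 CPM at 10 nM. CCNB1, its partner cyclin B1, measured 28.5 and 40.1 CPM in vehicle, 28.7 and 45.5 CPM at 100 pM and 21.5 and 39.8 CPM at 10 nM. CDK1 was higher at 100 pM in each replicate number, whereas the CCNB1 libraries of the 3 doses overlapped. The log2 fold change at 100 pM was 1.40 ± 0.57 for CDK1 (adjusted p = 0.164, 0.00358 with the block) and 0.11 ± 0.31 for CCNB1 (95% interval -0.59 to 0.81). CCNA2, the S and G2 cyclin, differed by 1.45 ± 0.25 in the fit with the block, and CCNB2 and CDC25C by 0.75 ± 0.20 and 0.99 ± 0.22. CDC25B, which starts CDK1 activation, was 71.2 and 46.8 CPM at 100 pM and 48.7 and 38.0 CPM in vehicle, and was called with the block.

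Of the 3 mitotic kinases, PBK was called at 100 pM with the block, and PLK1 and AURKA were not called in either fit. PLK1, the Polo kinase of centrosomes and kinetochores, measured 9.25 and 16.1 CPM in vehicle, 10.8 and 20.7 CPM at 100 pM and 8.75 and 20.4 CPM at 10 nM, and AURKA, the spindle-pole Aurora kinase, 19.7 and 30.5 CPM in vehicle, 24.9 and 41.2 CPM at 100 pM and 17.3 and 35.3 CPM at 10 nM. In both the doses overlapped, with 100 pM above vehicle in each replicate number, and the log2 difference at 100 pM was 0.31 ± 0.50 for PLK1 (95% interval -0.83 to 1.46) and 0.40 ± 0.38 for AURKA (95% interval -0.46 to 1.26). PBK, a mitotic protein kinase, differed by 1.62 ± 0.61 and was called with the block (adjusted p = 6.55e-05). The chromosomal passenger complex corrects faulty attachments. All 4 of its genes were called higher at 100 pM with the block and 0 without it (all tested genes: 17.0% and 6.57%). Its scaffold INCENP measured 35.3 and 43.6 CPM in vehicle, 51.5 and 72.2 CPM at 100 pM and 34.3 and 54.3 CPM at 10 nM, and its kinase AURKB 3.66 and 7.42 CPM in vehicle, 10.6 and 16.8 CPM at 100 pM and 3.73 and 12.8 CPM at 10 nM. Their libraries at 100 pM lay above both vehicle libraries. BIRC5 (survivin) and CDCA8 (borealin), which place the complex at centromeres, differed by 1.47 ± 0.23 and 0.99 ± 0.17 in the fit with the block.

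Among the 5 spindle checkpoint genes BUB3 stood apart from the others at 10 nM. BUB3 binds kinetochores and carries BUB1 and BUB1B (BUBR1) to them. It measured 125 and 108 CPM in vehicle, 164 and 157 CPM at 100 pM and 72.4 and 80.3 CPM at 10 nM at 18 h. The lowest libraries were those at 10 nM and the highest those at 100 pM, without overlap between any of the 3 doses. BUB3 fell at 10 nM both against vehicle (-0.61 ± 0.13, adjusted p = 0.00561) and against 100 pM (-1.07 ± 0.13, adjusted p = 0.000439), and both calls held without each library in turn. BUB1, the checkpoint kinase that docks on it, measured 9.06 and 15.5 CPM in vehicle, 17.4 and 28.6 CPM at 100 pM and 10.4 and 23.5 CPM at 10 nM. With the block BUB1 rose at 100 pM (0.90 ± 0.19), as did BUB1B, TTK, MAD2L1 and BUB3 itself (all tested genes: 17.0% higher). BUB1B, TTK and MAD2L1 rose at 10 nM too with the block, by 0.50 ± 0.18, 0.36 ± 0.14 and 0.55 ± 0.18 (all tested genes: 28.7% higher).

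Of the 8 centromere and kinetochore genes, 7 were called at 100 pM with the block (all tested genes: 17.0% higher). Without the block 1 was called (all tested genes: 6.57% higher). The call was CENPN, a constitutive centromere protein that recognizes the CENP-A nucleosome, at 16.9 and 20.8 CPM in vehicle, 39.2 and 59.5 CPM at 100 pM and 17.1 and 26.2 CPM at 10 nM. It rose at 100 pM by 1.39 ± 0.27 (adjusted p = 0.0142) and was lower at 10 nM than at 100 pM by -1.19 ± 0.27 (adjusted p = 0.0116). The call against 100 pM was lost without 100 pM replicate 3 or without 10 nM replicate 1. CENPF, a large outer kinetochore protein of G2 and M, measured 73.7 and 104 CPM in vehicle, 133 and 207 CPM at 100 pM and 64.7 and 119 CPM at 10 nM, with the same ranking of the doses by mean, 100 pM highest. The 4 subunits of the NDC80 complex, which grips microtubules, all rose at 100 pM with the block, SPC25 by 1.80 ± 0.30, SPC24 by 1.66 ± 0.22, NDC80 by 1.28 ± 0.25 and NUF2 by 1.26 ± 0.17. CENPA, the centromeric histone, differed by 0.90 ± 0.29. CENPE, a kinetochore motor, was not called in any dose comparison at 18 h.

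Of the 7 kinesin motors, 0 were called at 18 h without the block. With the block 6 rose at 100 pM (all tested genes: 17.0% higher). KIF11 (Eg5), which pushes the spindle poles apart, measured 26.2 and 49.7 CPM in vehicle, 65.0 and 138 CPM at 100 pM and 33.8 and 86.0 CPM at 10 nM. KIF23, a motor of the cytokinetic midzone, measured 17.1 and 29.5 CPM in vehicle, 44.6 and 84.4 CPM at 100 pM and 19.9 and 43.8 CPM at 10 nM. In both, 100 pM was above vehicle in each replicate number, and in the fit with the block they rose by 1.40 ± 0.19 and 1.45 ± 0.15. KIF20A (MKLP2), which moves the passenger complex to the midzone, was instead higher at 10 nM than at 100 pM in each replicate number. It measured 11.3 and 19.0 CPM in vehicle, 13.0 and 27.6 CPM at 100 pM and 17.5 and 44.8 CPM at 10 nM. With the block KIF20A was the only gene of the 56 higher at 10 nM than at 100 pM (log2 0.59 ± 0.18, adjusted p = 0.0233). It also rose against vehicle at 10 nM with the block (0.97 ± 0.19) and was not called at 100 pM. KIF20A and KIF23 were singled out after their values were seen.

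ASPM, a spindle pole protein, was the mitotic gene with the clearest fall at 10 nM. The other 6 spindle and microtubule genes were called higher at 100 pM with the block (all tested genes: 17.0% higher). ASPM measured 93.9 and 86.0 CPM in vehicle, 93.3 and 104 CPM at 100 pM and 36.3 and 55.1 CPM at 10 nM at 18 h. The libraries at 10 nM lay below all 4 others, and vehicle and 100 pM overlapped. ASPM fell at 10 nM by -0.98 ± 0.18 against vehicle (adjusted p = 0.00332) and by -1.11 ± 0.18 against 100 pM (adjusted p = 0.00234), and both calls held without each library in turn. At 100 pM its difference from vehicle was 0.13 ± 0.18 (95% interval -0.27 to 0.54). NUSAP1, PRC1, TPX2, DLGAP5, HMMR and CKAP2, which bundle, nucleate or stabilize spindle microtubules, differed at 100 pM by 0.51 (CKAP2) to 1.42 (NUSAP1) with the block. CKAP2 was higher at 10 nM than in vehicle with the block (0.79 ± 0.13) and with DESeq2.

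All 7 genes of chromosome condensation and structure were called higher at 100 pM with the block (all tested genes: 17.0% higher). MKI67 and LMNB1 were also called without it (all tested genes: 6.57% higher). MKI67, the Ki-67 protein that coats mitotic chromosomes and marks cycling cells in pathology, measured 40.1 and 65.0 CPM in vehicle, 119.97 and 209.6 CPM at 100 pM and 63.4 and 126 CPM at 10 nM. LMNB1, lamin B1 of the nuclear lamina, measured 29.8 and 51.3 CPM in vehicle, 96.4 and 166 CPM at 100 pM and 61.4 and 117 CPM at 10 nM. For both genes the libraries at 100 pM were above both vehicle libraries and those at 10 nM overlapped 100 pM. MKI67 rose by 1.65 ± 0.39 (adjusted p = 0.0297) and LMNB1 by 1.69 ± 0.44 (adjusted p = 0.0432). TOP2A, the topoisomerase that untangles sister chromatids, measured 74.7 and 132 CPM in vehicle, 136 and 276 CPM at 100 pM and 74.9 and 179.8 CPM at 10 nM, and SMC4, the condensin ATPase, 96.2 and 123 CPM in vehicle, 154 and 233 CPM at 100 pM and 116 and 168 CPM at 10 nM. With the block they rose at 100 pM by 0.97 ± 0.21 and 0.80 ± 0.09. The condensin subunits NCAPG, NCAPH and SMC2 rose with them, by 1.72 ± 0.18, 1.39 ± 0.18 and 0.94 ± 0.10. At 10 nM, 4 of the 7 were above vehicle and all 7 below 100 pM with the block. The shares of all tested genes were 28.7% above vehicle and 24.7% below 100 pM.

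The genes of anaphase and protein destruction divided. CDC20, the activator of the anaphase-promoting complex, measured 9.48 and 15.7 CPM in vehicle, 11.7 and 19.4 CPM at 100 pM and 9.50 and 20.3 CPM at 10 nM, with overlap between all doses and no call in either fit (100 pM against vehicle 0.30 ± 0.44, 95% interval -0.71 to 1.31). ESPL1, the separase that cuts cohesin, measured 20.1 and 34.2 CPM in vehicle, 50.7 and 98.8 CPM at 100 pM and 28.1 and 65.6 CPM at 10 nM and rose at 100 pM with the block (1.44 ± 0.17). CDCA3 and UBE2C, which act in ubiquitin-driven mitotic destruction, and PTTG1 (securin), the inhibitor of separase, also rose with the block, by 1.15 ± 0.19, 0.94 ± 0.25 and 0.67 ± 0.22. Of all tested genes 17.0% were called higher at 100 pM with the block. Of the cytokinesis genes, ECT2, the exchange factor that switches on RhoA at the cleavage furrow, measured 141 and 176 CPM in vehicle, 208 and 278 CPM at 100 pM and 98.8 and 145 CPM at 10 nM. ANLN (anillin), the furrow scaffold, measured 79.1 and 121 CPM in vehicle, 171 and 280.2 CPM at 100 pM and 61.9 and 140.0 CPM at 10 nM. The libraries of ECT2 did not overlap between 100 pM and either other dose. ECT2 was lower at 10 nM than at 100 pM, with a log2 fold change of -0.997 ± 0.21 (adjusted p = 0.00832, lost without 100 pM replicate 3 or without 10 nM replicate 1), and below vehicle with the block (-0.39 ± 0.09).

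The 7 genes not called at 100 pM for 18 h even with the block were CCNB1, CDC20, PLK1, AURKA, KIF20A, CENPE and ASPM. Their log2 differences with the block ran from 0.10 (CCNB1) to 0.43 (CENPE). That set was picked out after the values were seen, and its members were not tested against the other 49.

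**Figure D4:**
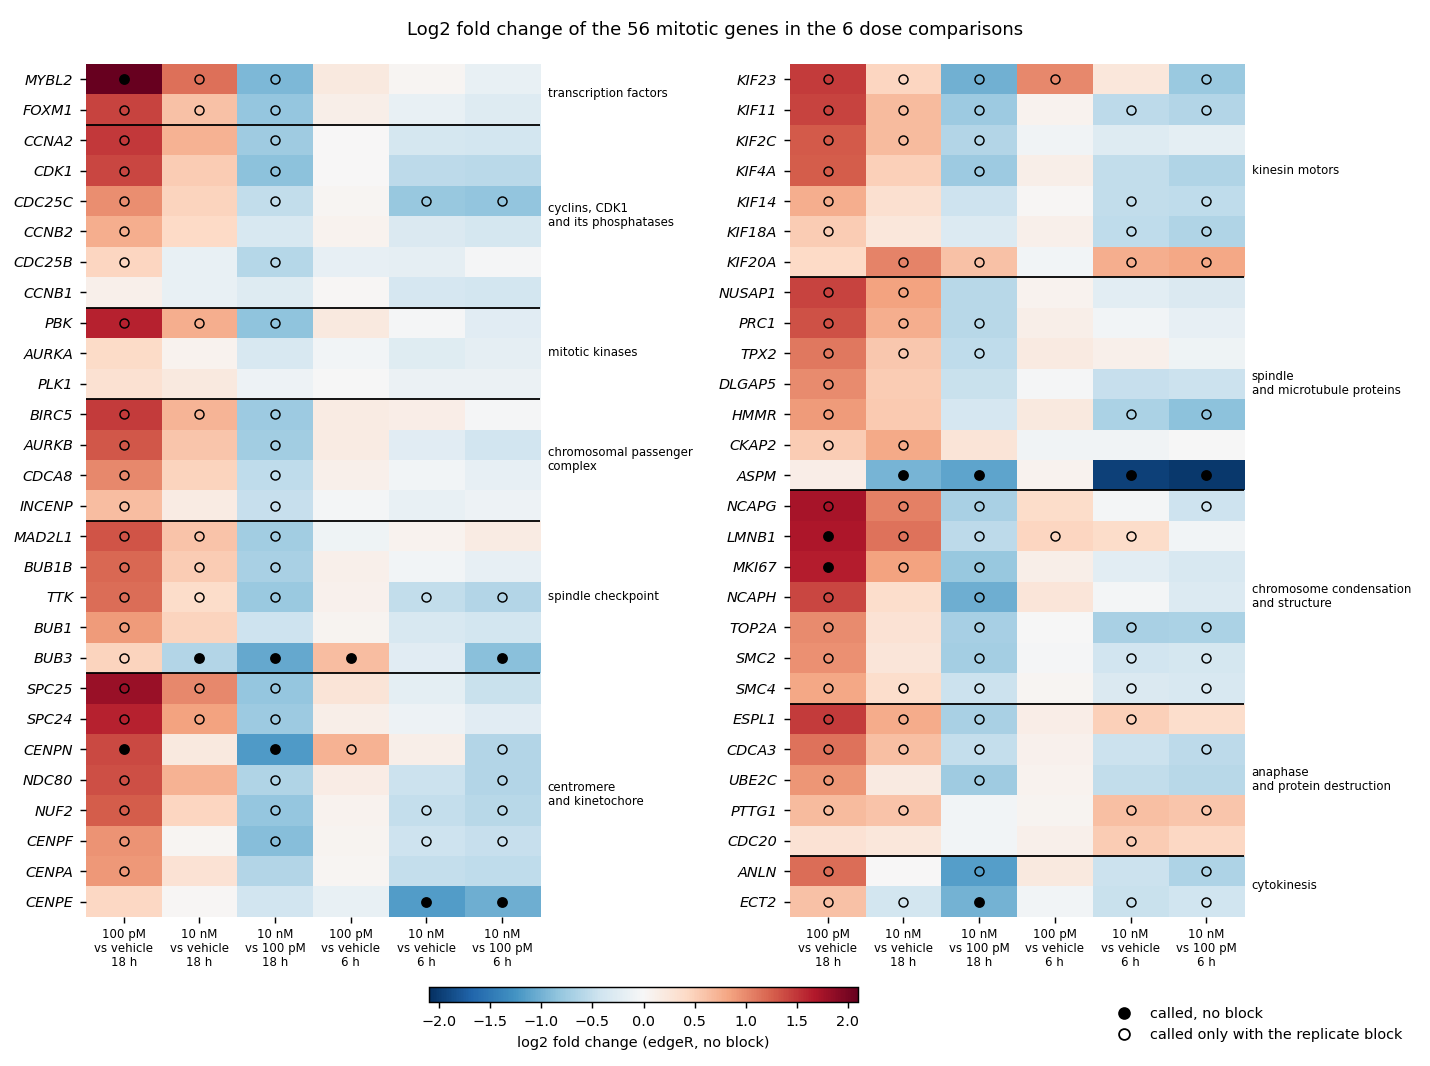
Log2 fold change (colour, edgeR without the block) of each of the 56 genes, grouped by role, in the 3 dose comparisons at 18 h and the 3 at 6 h. Filled dots mark an adjusted p under 0.05 without the block, rings a call only with the replicate block. The 100 pM column at 18 h is red throughout, and ASPM and BUB3 carry filled dots in blue in both 10 nM columns at 18 h.

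At 6 h, 100 pM left the group close to vehicle. The median ratio of 100 pM to vehicle was 1.02 in replicate 1 and 1.08 in replicate 3, and the median log2 fold change 0.08. BUB3 was the only gene called (1 higher, 0 lower, all tested genes: 2.88% higher, 0.606% lower). With the block BUB3, CENPN, KIF23 and LMNB1 were called higher and 0 lower (all tested genes: 7.59% higher, 4.64% lower). BUB3 measured 113 and 95.2 CPM in vehicle, 178 and 146 CPM at 100 pM and 88.5 and 88.4 CPM at 10 nM, and its rise at 100 pM was 0.64 ± 0.13 (adjusted p = 0.0254). The call was lost in a fit to the 6 h libraries alone and without 100 pM replicate 1, vehicle replicate 1 or vehicle replicate 3. CENPN measured 19.8 and 21.3 CPM in vehicle, 30.0 and 38.1 CPM at 100 pM and 19.1 and 25.3 CPM at 10 nM, and KIF23 21.5 and 32.1 CPM in vehicle, 46.3 and 62.0 CPM at 100 pM and 25.8 and 37.5 CPM at 10 nM. In both, the libraries at 100 pM lay above all others of that time, and the log2 difference with the block was 0.72 ± 0.11 and 1.04 ± 0.15.

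At 10 nM for 6 h most of the genes were below vehicle, with 2 called. The median ratio of 10 nM to vehicle was 0.754 in replicate 1, with 48 of 56 below 1, and 0.902 in replicate 3, with 40 below 1. The median log2 fold change was -0.24, and it was -0.03 without 10 nM replicate 1 and -0.56 without 10 nM replicate 3. Without the block ASPM and CENPE were called lower and 0 higher (all tested genes: 22.6% higher, 19.4% lower). With the block 14 were lower and 5 higher (all tested genes: 31.6% higher, 30.9% lower), shares below those of all genes. ASPM measured 119.8 and 97.9 CPM in vehicle, 111 and 117 CPM at 100 pM and 28.0 and 28.1 CPM at 10 nM. CENPE, the kinetochore motor that gathers chromosomes at the spindle equator, measured 21.6 and 20.1 CPM in vehicle, 17.2 and 20.4 CPM at 100 pM and 9.19 and 9.36 CPM at 10 nM. In both genes the 10 nM libraries were nearly equal and below the other 4, and the fall against vehicle was -1.95 ± 0.18 for ASPM (adjusted p = 7.42e-05) and -1.17 ± 0.27 for CENPE (adjusted p = 0.00788). Both calls held without each library in turn. The 14 lower with the block were these 2 and TOP2A, CDC25C, TTK, CENPF, NUF2, KIF11, KIF14, KIF18A, ECT2, HMMR, SMC2 and SMC4. Higher with the block were KIF20A, PTTG1, CDC20, ESPL1 and LMNB1. KIF20A measured 14.8 and 21.1 CPM in vehicle, 14.4 and 20.1 CPM at 100 pM and 21.7 and 39.0 CPM at 10 nM, PTTG1 9.54 and 13.1 CPM in vehicle, 9.94 and 13.5 CPM at 100 pM and 16.1 and 18.8 CPM at 10 nM, and CDC20 12.1 and 16.2 CPM in vehicle, 14.6 and 15.7 CPM at 100 pM and 14.2 and 26.9 CPM at 10 nM. For KIF20A and PTTG1 both libraries at 10 nM were above all others of that time.

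Against 100 pM, 10 nM gave lower levels at 6 h too, with a median log2 fold change of -0.38, which was -0.16 without 10 nM replicate 1 and -0.70 without 10 nM replicate 3. BUB3, CENPE and ASPM were called lower and 0 higher (all tested genes: 20.1% higher, 16.8% lower). With the block 21 were lower and 2, KIF20A and PTTG1, higher (all tested genes: 29.5% higher, 29.8% lower). ASPM differed by -2.02 ± 0.19 and BUB3 by -0.87 ± 0.13 (adjusted p = 8.23e-05 and 0.000805). CENPE differed by -1.02 ± 0.27 (adjusted p = 0.0169), a call lost without 100 pM replicate 3 or without either 10 nM library. Genes that led the 18 h response were not called at 6 h without the block: MKI67 measured 63.3 and 72.1 CPM in vehicle, 64.8 and 82.3 CPM at 100 pM and 50.6 and 65.4 CPM at 10 nM, MYBL2 57.9 and 76.4 CPM in vehicle, 65.9 and 88.2 CPM at 100 pM and 52.3 and 85.9 CPM at 10 nM, and LMNB1 37.5 and 53.9 CPM in vehicle, 52.0 and 72.6 CPM at 100 pM and 44.8 and 74.9 CPM at 10 nM. Their doses overlapped at 6 h. CDK1 measured 38.9 and 54.5 CPM in vehicle, 38.5 and 55.7 CPM at 100 pM and 22.7 and 41.0 CPM at 10 nM, TOP2A 111 and 138 CPM in vehicle, 104 and 144 CPM at 100 pM and 66.2 and 89.8 CPM at 10 nM, and CCNB1 37.2 and 39.0 CPM in vehicle, 37.4 and 40.3 CPM at 100 pM and 26.3 and 33.2 CPM at 10 nM. For these 3 the lowest libraries were at 10 nM, and only those of TOP2A and CCNB1 were below all 4 others. FOXM1 measured 19.2 and 27.0 CPM in vehicle, 21.0 and 29.1 CPM at 100 pM and 15.9 and 25.6 CPM at 10 nM, PLK1 11.8 and 18.3 CPM in vehicle, 11.6 and 18.3 CPM at 100 pM and 10.6 and 16.9 CPM at 10 nM, and AURKA 28.0 and 32.1 CPM in vehicle, 26.4 and 31.5 CPM at 100 pM and 20.2 and 30.4 CPM at 10 nM. Their doses overlapped. BUB1 measured 13.3 and 15.7 CPM in vehicle, 13.7 and 16.7 CPM at 100 pM and 9.66 and 13.4 CPM at 10 nM, CENPF 102 and 113 CPM in vehicle, 102 and 122 CPM at 100 pM and 72.1 and 87.6 CPM at 10 nM, and INCENP 43.4 and 46.4 CPM in vehicle, 41.4 and 45.5 CPM at 100 pM and 39.1 and 42.0 CPM at 10 nM. In CENPF the libraries at 10 nM were below all 4 others. KIF11 measured 39.9 and 54.3 CPM in vehicle, 39.8 and 58.9 CPM at 100 pM and 25.4 and 39.0 CPM at 10 nM, SMC4 113 and 129.6 CPM in vehicle, 109 and 139 CPM at 100 pM and 87.8 and 108 CPM at 10 nM, and ECT2 157 and 176 CPM in vehicle, 151 and 170.3 CPM at 100 pM and 113 and 129 CPM at 10 nM. The 10 nM libraries of all 3 lay below those of vehicle. ESPL1 measured 26.4 and 38.4 CPM in vehicle, 30.0 and 41.2 CPM at 100 pM and 38.7 and 53.3 CPM at 10 nM, and its levels at 10 nM were above vehicle in each replicate number.

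**Figure D5:**
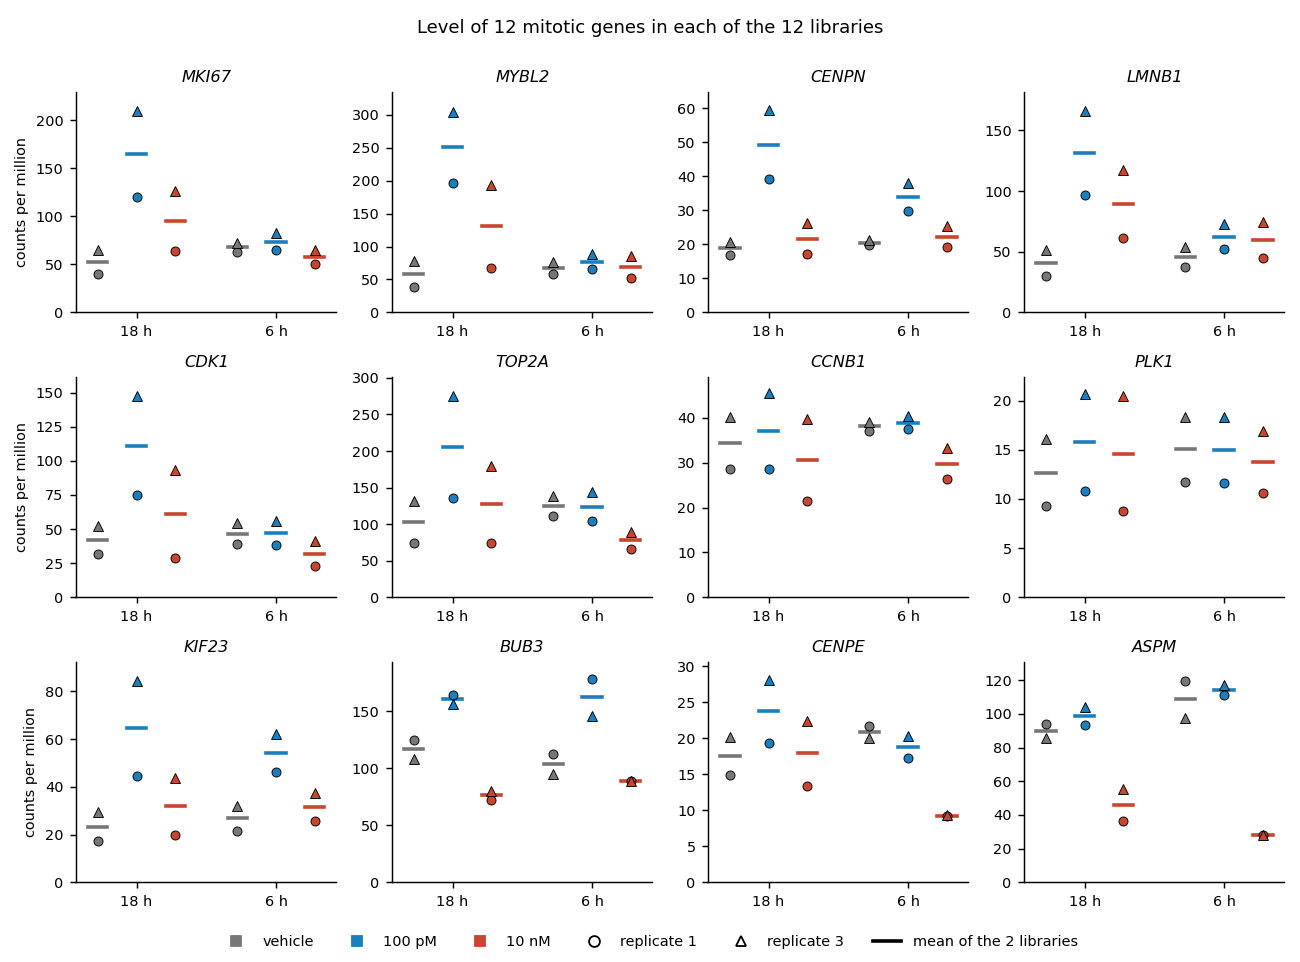
CPM (y) of 12 mitotic genes in each library, at 18 h (left of each panel) and 6 h (right), in vehicle, 100 pM and 10 nM. Circles are replicate 1, triangles replicate 3, and bars the mean of the 2 libraries. MKI67, MYBL2 and CENPN peak at 100 pM for 18 h, CCNB1 and PLK1 overlap between doses there, and ASPM is lowest at 10 nM at both times.

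Between times the median of the mitotic genes was higher at 18 h than at 6 h at both doses of progestin, and lower in vehicle, and each of these medians moved with single libraries. In vehicle the median ratio of 18 h to 6 h was 0.727 in replicate 1 and 0.962 in replicate 3, and the median log2 difference -0.24 (0.085 without 18 h replicate 1). There edgeR called 0 genes in either fit and DESeq2 0 (all tested genes by edgeR: 0% and, with the block, 0.0288%). At an unadjusted p under 0.05 there were 0, against 178 of all 13872 tested genes. At 100 pM the median ratio was 1.42 in replicate 1 and 1.81 in replicate 3, and the median log2 difference 0.73 (0.27 without 18 h replicate 3, 1.10 without 18 h replicate 1). There edgeR called 0 without the block and DESeq2 2 (all tested genes by edgeR in either direction: 1.18%). At an unadjusted p under 0.05 there were 12 (all tested genes: 2251 of 13872). With the block 37 were called, all higher at 18 h (all tested genes: 22.2% in either direction, 1591 of 13872 higher and 1485 lower). MYBL2 had the largest difference, 1.68 ± 0.24, with the block. At 10 nM the median ratio was 1.09 in replicate 1, with 21 of 56 genes below 1, and 1.66 in replicate 3, with 2 below 1. The median log2 difference was 0.55, and it was -0.24 without 18 h replicate 3. CENPE (0.95 ± 0.27, adjusted p = 0.033) and ASPM (0.70 ± 0.18, adjusted p = 0.0231) were called higher at 18 h than at 6 h without the block. Of all 13872 tested genes, 24.5% were called in either direction, 1576 higher and 1817 lower. With the block 27 of the 56 were higher (all tested genes: 49.2% in either direction, 3388 higher and 3431 lower). The CENPE and ASPM calls were lost without 10 nM 18 h replicate 3 and without either 10 nM 6 h library.

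The dose effect itself was also tested between times. For 100 pM against vehicle, 18 h minus 6 h, edgeR called 0 genes without the block (4 at an unadjusted p under 0.05, DESeq2 0). Of all tested genes 0.0144% were called in either direction, and 987 of 13872 had an unadjusted p under 0.05. With the block 24 were called, all positive (all tested genes: 5.60% in either direction, 435 of 13872 positive and 342 negative). The 24 included MYBL2 (1.94 ± 0.34) and MKI67 (1.53 ± 0.25). For 10 nM against vehicle ASPM alone was called, at 0.98 ± 0.25 (adjusted p = 0.0433), its deficit being smaller at 18 h than at 6 h. With the block 26 were positive and 1, BUB3, negative. Of all tested genes 10.5% were called in either direction, and with the block 35.1%, 2358 positive and 2505 negative. For 10 nM against 100 pM ASPM was called at 0.91 ± 0.25 (adjusted p = 0.05), and with the block ASPM was positive and 7 genes negative. Of all tested genes 12.2% were called in either direction, and with the block 37.6%, 2546 positive and 2669 negative. The 2 ASPM calls between times were lost without the filter on low counts and without most of the libraries concerned.

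Other genes of mitosis were listed by function, and at 100 pM for 18 h the medians of 3 of the 4 lists were above 0. In that comparison 6.57% of all tested genes were called higher and 3.89% lower (17.0% and 17.0% with the block). Of 37 further kinases, motors and spindle or cytokinesis genes, 5 rose and 0 fell at 100 pM (34 and 0 with the block, median log2 fold change 0.94). PKMYT1 (2.21 ± 0.44), which holds CDK1 inactive, and MASTL (1.51 ± 0.25), the Greatwall kinase that protects the phosphorylation of CDK1 substrates, were among the 5. At 10 nM for 18 h, 3 of the 37 rose and 1 fell against vehicle (13 and 2 with the block, median 0.27), and 0 rose and 4 fell against 100 pM (0 and 30 with the block). Without the block, the shares against vehicle were below those of all tested genes (19.0% higher, 15.2% lower), and the share lower than 100 pM was near theirs (11.4%). With the block, 28.7% of all tested genes were higher and 27.3% lower than vehicle. The share of the 37 lower than 100 pM with the block was above that of all tested genes (24.7%). Of 36 other centromere and kinetochore genes, 3 rose and 0 fell at 100 pM (28 and 2 with the block, median 0.77), among them CENPI (1.90 ± 0.43) and CENPM (1.73 ± 0.46), parts of the same constitutive network as CENPN. Of 15 other condensin and cohesin genes, 5 rose and 0 fell (10 and 1 with the block, median 0.45), ESCO2 (2.37 ± 0.63), which acetylates cohesin, and CDCA5 (1.91 ± 0.51), sororin, by the most. The 17 genes of the anaphase-promoting complex and its regulators had a median of -0.04 at 100 pM, with 1 risen and 0 fallen (2 and 3 with the block). The gene called was FBXO5 (1.57 ± 0.37), EMI1, an inhibitor of the complex.

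DNA replication and S phase genes, 44 of them tested, had more calls at 100 pM for 18 h than the mitotic genes. At 100 pM for 18 h 29 rose and 0 fell (44 and 0 with the block), with a median log2 fold change of 1.47 against 1.12 for the mitotic genes. Of all tested genes 6.57% were called higher there, and 17.0% with the block. At 10 nM for 18 h 3 rose and 0 fell against vehicle (33 and 0 with the block, median 0.65), and 0 rose and 3 fell against 100 pM (0 and 41 with the block, median -0.86). Without the block these shares were below those of all tested genes called higher than vehicle (19.0%) and lower than 100 pM (11.4%). With the block they were above those of all tested genes (28.7% and 24.7%). At 6 h the lists differed in the sign of the median at 10 nM, 0.36 for the replication genes (4 up, 0 down, 18 and 1 with the block, all tested genes 22.6% and 19.4% without it) and -0.24 for the mitotic genes, which 1 library moved to -0.03. With the block 31.6% of all tested genes were higher and 30.9% lower at 10 nM for 6 h. At 100 pM for 6 h 1 replication gene rose and 0 fell (13 and 0 with the block, median 0.34). There 2.88% of all tested genes were higher without the block and 7.59% with it. No test was made of the difference between the lists.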

How the data were processed

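The authors deposited a table of raw read counts per gene symbol for the 12 libraries, made from total RNA with Nextera libraries per the labels. The submitters' processing notes name STAR, DESeq2 and the build hg19. The role of DESeq2, the tools' versions, the annotation, the counting program and its strand setting are, in the sources used here, not given. Hence reads of overlapping or antisense genes may be shared. All 12 columns were used, and 2709 symbols had no count. Promoter windows came from RefSeq on GRCh38.p14, another build than that of the counts, and were matched by symbol alone.

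In R 4.3.3 with edgeR 4.0.16 and limma 3.58.1, genes were kept by filterByExpr (13872 genes) and libraries scaled by TMM. All 12 libraries entered 1 fit of group coefficients (6 residual degrees of freedom), tested by the robust quasi-likelihood F test. Genes were called at an adjusted p under 0.05, adjusted by Benjamini-Hochberg over 13872 genes, and the SE is the log2 fold change divided by the root of F. Intervals are 95%. Alternatives were RLE scaling, no filter, DESeq2 1.42.0, libraries of 1 time, each library left out, and replicate number as a block (5 residual degrees of freedom). Shares of all tested genes are from edgeR, and none is given for DESeq2.

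Libraries with the same number deviated together from their group means in all 15 pairs of groups (r of 0.464 to 0.677 across genes), so the block is given beside each result it changes. The labels do not say what a number shares. The block lowered the biological coefficient of variation to 0.0678, against 0.163 without it. Between the replicates of a group, chi-square per degree of freedom was 44.2 to 66.6, far above sampling noise.

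The members, role groups, lists and tests were chosen with earlier results of these data known. Genes given library by library were 10 chosen by name, the most counted gene of each role group, and the called genes with the largest and smallest fold change in each dose comparison. Other members named in the text were chosen after their values were seen. Of the other lists, up to 4 called genes with the smallest adjusted p per comparison could be named.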

Additional observations from a re-analysis of the deposited data

Results flagged for a closer look

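The difference of a dose effect between times was tested directly, and among the 56 mitotic genes it was called only for ASPM without the block. For 10 nM against vehicle the log2 effect at 18 h minus that at 6 h was 0.978 ± 0.25 (SE, edgeR adjusted p = 0.0433), and for 10 nM against 100 pM it was 0.913 ± 0.25 (adjusted p = 0.049996). With the block the adjusted p were 0.0133 and 0.0168. At 18 h ASPM measured 93.9 and 86.0 CPM in vehicle, 93.3 and 104 CPM at 100 pM and 36.3 and 55.1 CPM at 10 nM. At 6 h it measured 119.8 and 97.9 CPM in vehicle, 111 and 117 CPM at 100 pM and 28.0 and 28.1 CPM at 10 nM. It was below the other doses at both times at 10 nM, and by less at 18 h than at 6 h.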

How the results depend on the processing

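With the replicate block the count of the 56 genes called at 18 h was 49 for 100 pM against vehicle, 27 for 10 nM against vehicle and 41 for 10 nM against 100 pM. At 6 h the same counts were 4, 19 and 23, for 18 h against 6 h they were 37 at 100 pM and 27 at 10 nM, and for the dose effects between times 24 (100 pM), 27 (10 nM) and 8 (10 nM against 100 pM). DESeq2 called 26, 5 and 7 in the 3 comparisons at 18 h, 2 at 100 pM between times and 2 for the 10 nM effect between times. Fits to 1 time called 0 by edgeR for 100 pM against vehicle at 18 h and at 6 h, and 7 for 10 nM against 100 pM at 6 h. Without the filter the 10 nM effect and the difference of doses between times gave 0, as did RLE scaling for the difference. With 1 library left out the counts at 18 h were 0 to 3 for 100 pM against vehicle, 2 to 6 for 10 nM against vehicle and 2 to 14 for 10 nM against 100 pM. They were 0 to 1 for 100 pM against vehicle at 6 h, 0 to 2 at 10 nM between times, 0 to 2 for the 10 nM effect and 0 to 1 for the difference of doses. Such fits take the spread of a group with 1 remaining library from the rest. The median log2 fold change of the 56 genes kept its sign under every other alternative run, and leaving out 1 library turned it in 8 instances. It ran from -0.13 to 0.29 for 100 pM against vehicle at 6 h, from -0.27 to 1.01 for 10 nM against vehicle at 18 h, from -0.67 to 0.085 for vehicle between times, from -0.24 to 0.97 for 10 nM between times and from -1.04 to 0.25 for the difference of doses between times. It ran from 0.61 to 1.54 for 100 pM against vehicle at 18 h, from -1.43 to -0.12 for 10 nM against 100 pM at 18 h, from -0.56 to -0.03 and from -0.70 to -0.16 for 10 nM against vehicle and against 100 pM at 6 h, from 0.27 to 1.10 for 100 pM between times, and from 0.50 to 1.40 and 0.01 to 1.25 for the 100 pM and 10 nM effects between times. The causes were not tested. At 100 pM against vehicle, MKI67, CENPN, MYBL2 and LMNB1 were not called from the libraries of 18 h alone (adjusted p of 0.0641 to 0.124), nor MYBL2 and LMNB1 without the filter (0.0508 and 0.0556), nor BUB3 from those of 6 h alone (0.0834). The ASPM differences between times were not called without the filter (0.0513 for 10 nM against vehicle, 0.0597 for 10 nM against 100 pM), nor the second with RLE scaling (0.0547). Over the calls of single genes, leaving out a library of the groups concerned was tried 88 times, ended the call 44 times and turned the direction 0 times.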

Other observations

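The regulators that act upstream of these genes gave mixed results at 18 h. Of 16 tested genes of the DREAM complex, MuvB and NF-Y, 6 rose and 1 fell at 100 pM against vehicle (7 and 4 with the block, median log2 fold change 0.12), where 6.57% of all tested genes were called higher and 3.89% lower. MYBL1 (A-MYB), a MYB factor related to MYBL2, rose by 0.87 ± 0.09, and RBL1 (p107), a pocket protein that is also an E2F target, by 1.03 ± 0.21. RBL2 (p130), the pocket protein of DREAM in resting cells, fell by 0.53 ± 0.13. At 10 nM for 18 h, 2 rose and 1 fell against vehicle, below the shares of all tested genes (19.0% and 15.2%). With the block 5 rose and 4 fell (all tested genes: 28.7% higher, 27.3% lower). Against 100 pM, 2 rose and 5 fell (all tested genes: 14.8% higher, 11.4% lower), and 3 and 7 with the block (25.4% and 24.7%). MYBL1 was the largest of these falls, at -1.23 ± 0.10. At 6 h MYBL1 was the gene called at 100 pM, at 1.51 ± 0.10 (all tested genes: 2.88% higher). At 10 nM for 6 h, 1 gene rose and 6 fell against vehicle (all tested genes: 22.6% higher, 19.4% lower). With the block 3 rose and 8 fell (all tested genes: 31.6% higher, 30.9% lower). Against 100 pM, 1 rose and 6 fell (all tested genes: 20.1% higher, 16.8% lower), and 3 and 10 with the block (29.5% and 29.8%).

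Of 13 CDK inhibitors and G2 arrest genes, 3 rose and 0 fell at 100 pM for 18 h (all tested genes: 6.57% higher, 3.89% lower). With the block 8 rose and 1 fell there (all tested genes: 17.0% higher, 17.0% lower). At 10 nM for 18 h 3 rose and 0 fell, and 8 and 0 with the block (all tested genes with it: 28.7% and 27.3%). CDKN1A (p21), which binds and inhibits CDKs, rose by 0.92 ± 0.15 at 100 pM and 1.64 ± 0.15 at 10 nM, and was higher at 10 nM than at 100 pM by 0.72 ± 0.15. CDKN1B (p27), of the same family, rose by 0.64 ± 0.10 and 0.50 ± 0.10. GADD45G, a stress-induced gene tied to G2 arrest, rose by 0.91 ± 0.21 at 10 nM. At 6 h edgeR called 0 at 100 pM, where 5 were higher at an unadjusted p under 0.05 (all tested genes: 1639 of 13872 in either direction). With the block 4 were higher there (all tested genes: 7.59% higher), and DESeq2 called 1. At 10 nM for 6 h 5 rose and 3 fell against vehicle (7 and 3 with the block). CDKN1C (p57) rose there by 2.98 ± 0.61 and CCNG2, cyclin G2, fell by 1.34 ± 0.14. Of all tested genes, 19.0% were called higher and 15.2% lower at 10 nM than in vehicle at 18 h without the block, and 22.6% and 19.4% at 6 h. The share of the 13 genes called higher at 18 h, and the share called lower at 6 h, were near these. With the block 31.6% of all tested genes were higher and 30.9% lower at 10 nM for 6 h. The adjusted p of each gene given a value in these paragraphs was under 0.05 without the block.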
